A study of Mus musculus with 36 samples.

Results

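Transcripts of 10 genes of the MHC class I antigen processing pathway were followed across CD4 T cells of mice. The 10 were taken by symbol from the 45706 genes of the count tables: Nlrc5, the transcriptional co-activator of the pathway; H2-K1 and H2-D1, the heavy chains, with their light chain B2m; Tap1, Tap2 and Tapbp, which move peptides into the endoplasmic reticulum and help to load them; and Psmb8, Psmb9 and Psmb10, the catalytic subunits of the immunoproteasome. All 10 were found in the tables, and all 10 were tested in every comparison.

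The title of the series names a 3D clique at the Ets1 locus and T cell function, and its groups ask what the Ets1-SE-KO strain changes. The series holds 36 RNA-seq libraries made from spleen cells, of which 28 could be placed in 10 groups. Mutant cells came from the strain C57BL/6J-Ets1-SE-KO, called KO here, and control cells from C57BL/6J, called WT. The sources used here do not state the coordinates of the KO deletion or the age and sex of the mice. Naive CD4 T cells, isolated with beads that remove other cells, gave 2 KO and 2 WT libraries. Th1 cells gave 3 KO and 3 WT libraries, and Th2 cells gave 3 KO and 3 WT libraries. A second Th1 experiment gave 2 KO and 2 WT libraries that were un-transduced, 4 libraries of KO cells transduced with an Ets1 retrovirus (Ets1-RV) and 4 libraries of WT cells transduced with an empty vector retrovirus (EV). In that experiment the virus differs together with the genotype between the transduced groups. Th1 cells had been activated on anti-CD3 with anti-CD28, interleukin 12 at 10 ng/mL and interleukin 2 at 1 ng/mL for 6 days; the sources used here do not describe the Th2 culture.

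MHC class I molecules display peptides from proteins made inside a cell to CD8 T cells and are carried by nearly every nucleated cell, T cells included. Peptides are cut by the proteasome, carried into the endoplasmic reticulum by the Tap1-Tap2 transporter, and loaded with the help of tapasin, the product of Tapbp, onto a heavy chain paired with beta-2 microglobulin. Interferon-gamma is known to raise the whole set: it acts in part through Irf1, and it brings in the immunoproteasome subunits Psmb8, Psmb9 and Psmb10, which replace the constitutive catalytic subunits Psmb5, Psmb6 and Psmb7. Nlrc5 does not bind DNA by itself, and is known to act through factors that sit on a module of upstream boxes (an X2 box bound by CREB and ATF factors, and a Y box, the inverted CCAAT box bound by NF-Y) in class I gene promoters. Lymphocytes are known to express Nlrc5 highly, and loss of Nlrc5 in mice is known to lower class I on T cells the most.

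In the GRCm38 build with GENCODE M21 annotation, 7 of the genes lie on chromosome 17 and the others on chromosomes 2 and 8. Tapbp (17, 33915899 to 33929292, plus strand) and H2-K1 (17, 33996017 to 34000347, minus strand) lie at one end of the MHC. Psmb9 (17, 34181987 to 34187764, minus strand), Tap1 (17, 34187553 to 34197225, plus strand), Psmb8 (17, 34197721 to 34201454, plus strand) and Tap2 (17, 34203527 to 34216321, plus strand) follow each other, and H2-D1 lies further on (17, 35262730 to 35267499, plus strand). B2m is on chromosome 2 (122147686 to 122153083, plus strand), and Nlrc5 (94434356 to 94527272, plus strand) and Psmb10 (105935735 to 105938444, minus strand) are on chromosome 8. Psmb9 and Tap1 start head to head on opposite strands, and 212 bases of their exons overlap.

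The promoter windows of 8 of the 10 genes were in the RefSeq promoter table for GRCm38.p6, which gives 250 bases before and 50 bases after a gene's start. Those of H2-K1, H2-D1, B2m and Tap1 are printed because they show the shared boxes that Nlrc5 is known to work through, and the stretch that Tap1 shares with Psmb9. Capitals mark matches, on either strand, to the NF-kB site of class I enhancer A (the first capitals in H2-K1 and H2-D1), to AANNGAAA (a repeat unit of the interferon-stimulated response element), to TGACG (the core of the cAMP response element, as in the X2 box) and to ATTGG (the CCAAT box on the other strand, as in the Y box). No capital letters belong to more than 1 match in the windows shown.
H2-K1, chr17:34000298-34000597, minus strand: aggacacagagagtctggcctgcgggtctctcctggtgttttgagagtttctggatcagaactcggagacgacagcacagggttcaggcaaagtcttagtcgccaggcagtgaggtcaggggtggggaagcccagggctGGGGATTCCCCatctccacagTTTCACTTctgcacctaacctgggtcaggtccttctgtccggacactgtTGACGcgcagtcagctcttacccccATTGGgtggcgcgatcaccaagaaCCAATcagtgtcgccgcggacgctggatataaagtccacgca
H2-D1, chr17:35262844-35263143, plus strand: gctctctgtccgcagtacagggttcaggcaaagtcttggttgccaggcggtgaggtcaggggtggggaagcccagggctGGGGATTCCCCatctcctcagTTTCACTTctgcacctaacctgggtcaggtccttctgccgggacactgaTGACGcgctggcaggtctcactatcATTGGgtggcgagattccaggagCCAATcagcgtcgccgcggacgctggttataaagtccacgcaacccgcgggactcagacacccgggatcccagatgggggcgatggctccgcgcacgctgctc
B2m, chr2:122147437-122147736, plus strand: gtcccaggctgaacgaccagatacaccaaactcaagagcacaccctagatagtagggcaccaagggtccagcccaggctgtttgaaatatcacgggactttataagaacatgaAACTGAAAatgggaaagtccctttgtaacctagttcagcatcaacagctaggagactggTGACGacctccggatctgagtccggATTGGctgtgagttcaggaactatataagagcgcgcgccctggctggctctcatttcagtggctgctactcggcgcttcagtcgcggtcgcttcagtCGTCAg
Tap1, chr17:34187306-34187605, plus strand: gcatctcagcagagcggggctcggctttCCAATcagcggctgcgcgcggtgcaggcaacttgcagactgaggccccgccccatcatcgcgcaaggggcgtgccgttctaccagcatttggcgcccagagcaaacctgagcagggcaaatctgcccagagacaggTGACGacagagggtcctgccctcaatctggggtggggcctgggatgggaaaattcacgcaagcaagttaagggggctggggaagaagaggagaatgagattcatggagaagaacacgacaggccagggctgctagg

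In H2-K1, H2-D1 and B2m the TGACG match was followed, 20 bases on, by an ATTGG match. That spaced pair was found in 31 of 32817 promoter windows (0.0945%). The spacing counted was that of these genes, whose own windows are among the 31, so the share is a description and not an independent test. H2-K1 and H2-D1 also held the enhancer A site, which 0.0305% of all windows hold, and in both it lay 10 bases before the AANNGAAA match and that match 41 bases before the TGACG match; in B2m the last distance was 51 bases. Over the 100 bases that hold these boxes, H2-K1 and H2-D1 were identical at 89 bases (89.0%). All 4 motifs together were in 3 of the 32817 windows (0.00914%), which were those of H2-K1, with 2 overlapping windows, and of H2-D1.

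Of the 8 genes with a window, AANNGAAA was in 3 (all windows 23.9%), TGACG in 5 (20.8%) and ATTGG in 6 (37.4%), the others being Tap1 and Psmb9 for both boxes and Tapbp for ATTGG. TTCNNNGAA, the interferon-gamma activated site, was in Psmb8 alone of the 8 (all windows 8.29%). CGGAAG, a site of ETS factors such as Ets1, was in 0 of the 8 windows (all windows 16.9%). None of these letters was in the Psmb10 window. The windows of Tap1 and Psmb9 overlap, so the matches on those shared bases are the same ones counted for both genes.

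**Figure D1:**
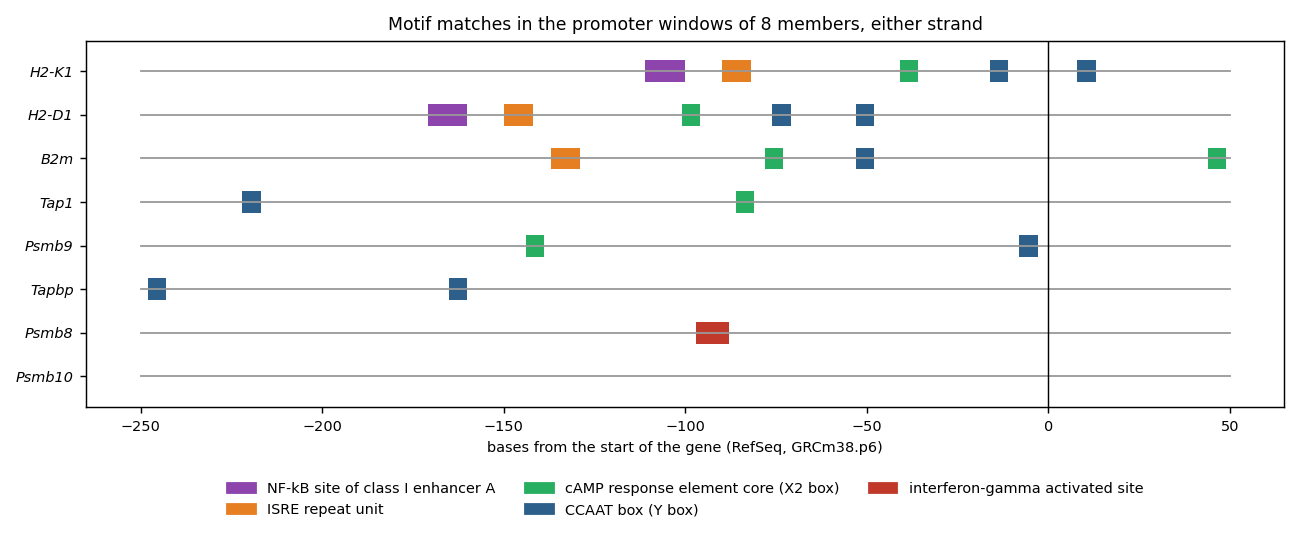
Matches to 5 motifs in the promoter windows of 8 of the genes, by distance in bases from the start of the gene; colours give the motif and either strand counts. H2-K1, H2-D1 and B2m hold the interferon repeat unit, the X2 core and the Y box in the same order, with 20 bases between the X2 core and the Y box, and Psmb10 holds no match.

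Gene counts per library ran between 5069623 and 5852673 in naive cells, between 7311614 and 10256407 in the first Th1 and Th2 libraries, and between 1813288 and 6844944 in the second experiment. Levels are in CPM, a count divided by the gene counts of its library and put on the same scale in every library, adjusted by TMM factors over all 36 libraries. Fold changes are log2 values with their standard error (SE) from edgeR's quasi-likelihood test, fitted across all genes, with p-values adjusted by Benjamini-Hochberg over all genes tested, and a gene is called where the adjusted p is under 0.05. Ets1 checked the labels: it stood at 590 and 611 CPM in naive KO cells and at 1530.0 and 1528 CPM in naive WT cells, and Gm27162 had 0 counts in every labelled KO library against 8 to 53 counts in the WT libraries. Titles carry a B and a T number that the labels do not explain. The naive libraries and the first Th1 and Th2 libraries all have B number 1, so p-values there reflect only how far these libraries vary, and that variation may be technical. Naive cells of the 2 genotypes differed in sex-linked transcripts: Xist stood at 0 CPM in both KO libraries, against 393 and 421 CPM in the WT libraries. Genotype and sex therefore cannot be told apart in the naive libraries.

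Per kilobase of exon, with all annotated exons of a gene joined, the light chain led the set in naive WT cells with 909 CPM per kb, followed by the heavy chains H2-K1 with 388 and H2-D1 with 368 CPM per kb. The peptide handling genes were an order lower on the same scale, Psmb8 at 68.6, Tapbp at 54.8, Tap2 at 34.9 and Tap1 at 31.0 CPM per kb. Nlrc5 at 23.1, Psmb10 at 22.96 and Psmb9 at 10.0 CPM per kb had the lowest levels of the 10. Joined exons can be longer than a single transcript, so this order depends on the gene length used.

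**Figure D2:**
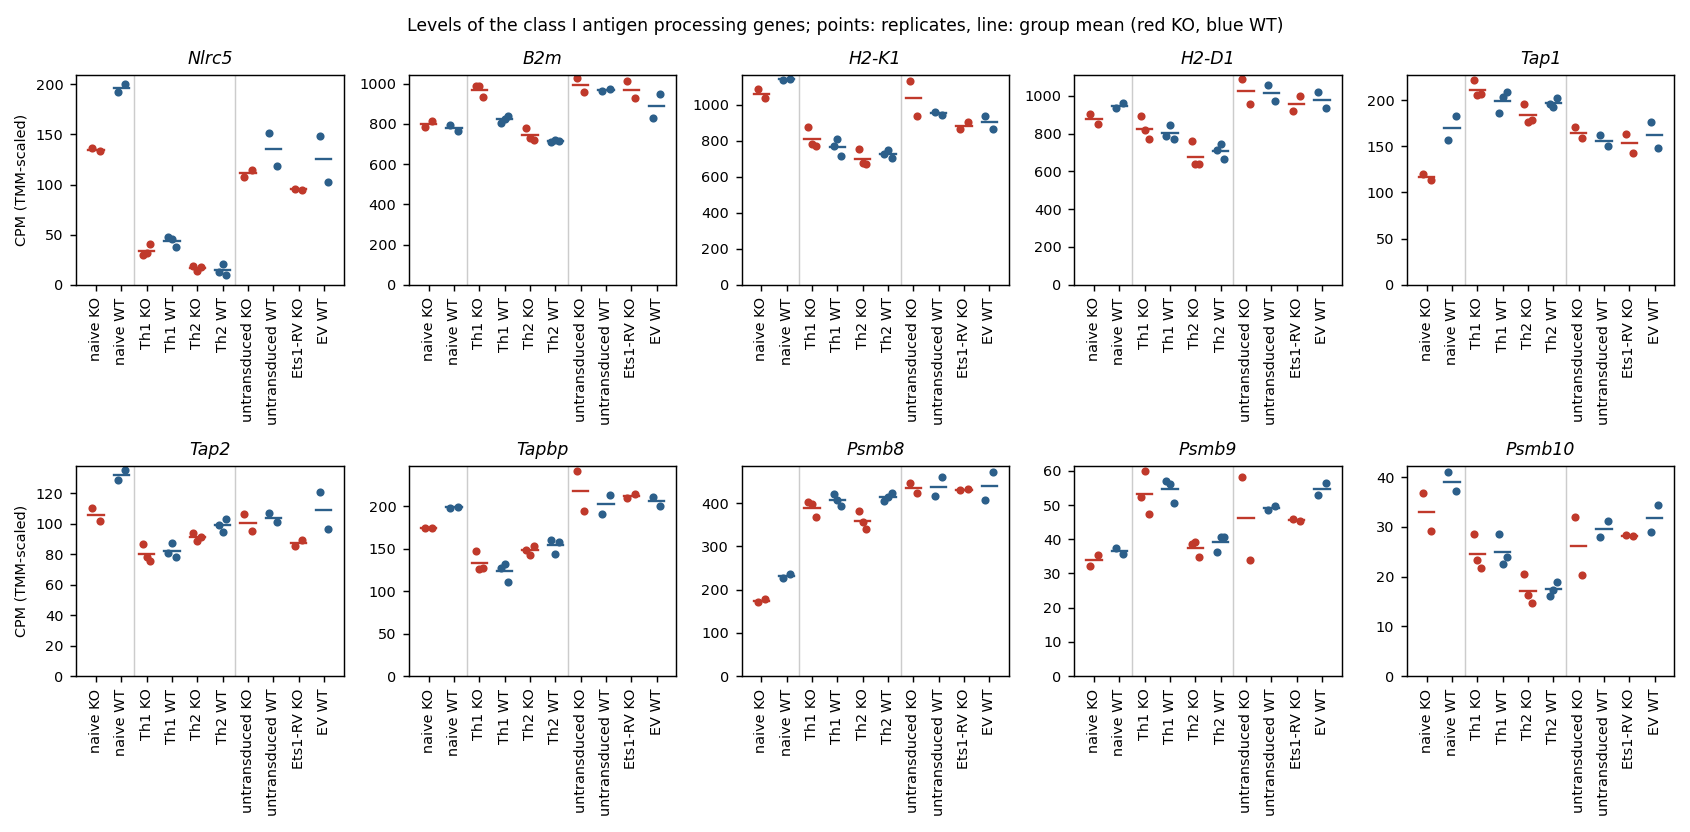
TMM-scaled CPM (linear axes from 0) of the 10 genes in the 10 groups, KO in red and WT in blue; each point is 1 library, or 1 summed B number in the transduced groups, and the line is the group mean. Nlrc5 spans 192 to 200.2 CPM in naive WT cells and 9.41 to 20.97 CPM in Th2 WT cells, while B2m differs by 1.39-fold between its highest and lowest group.

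Naive KO cells carried less RNA of the co-activator, the transporter and the immunoproteasome subunit Psmb8 than naive WT cells. Of the 10 genes, 5 were called lower and 0 higher, where 8.92% of the 11246 genes tested were called lower, 8.75% higher and 17.7% in either direction. The 5 were Nlrc5, Tap1, Psmb8, Tap2 and Tapbp. The median log2 fold change of the 10 was -0.24, against 0.00 over all genes tested. These are bulk cells, in which fewer cells of a type and less RNA per cell cannot be told apart. Genotype also goes with Xist in these libraries, which all share a B number, so genotype and sex cannot be told apart.

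Nlrc5 stood at 133 and 136 CPM in the KO libraries, against 192 and 200.2 CPM in the WT libraries. Both KO libraries were below both WT libraries, and the log2 fold change was -0.56 (SE 0.07, adjusted p = 9.4e-12, edgeR, n = 2 libraries each). Tap1, which with Tap2 forms the peptide pump, stood at 113 and 120.0 CPM in KO, against 157 and 183 CPM in WT (log2 fold change -0.56, SE 0.08, adjusted p = 6.6e-11). Psmb8, the immunoproteasome subunit also called LMP7, stood at 171 and 177 CPM in KO, against 227 and 237 CPM in WT (log2 fold change -0.43, SE 0.07, adjusted p = 3.7e-08). The groups of all 3 genes lay apart.

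Tap2 stood at 102 and 110.1 CPM in KO cells, against 129 and 135 CPM in WT cells (log2 fold change -0.33, SE 0.08, adjusted p = 0.00069, edgeR). Tapbp, the tapasin gene, was the smallest of the called differences, with 174.1 and 174.5 CPM in KO, against 198.3 and 199.5 CPM in WT (-0.21, SE 0.07, adjusted p = 0.023). Its call did not hold with DESeq2, without the filter on low counts, with the replicate block (adjusted p = 0.050, just above the threshold) or without any 1 of the 4 libraries (highest adjusted p 0.22). Tap2 was not called from counts without strand, nor without KO replicate 1, KO replicate 2 or WT replicate 2 (highest adjusted p 0.15). Tap1 was not called without KO replicate 1 or KO replicate 2 (highest adjusted p 0.078). Nlrc5 and Psmb8 were called in 9 of 9 other settings, the block included, and they were the 2 genes left when either KO library was left out. Tap2 and Psmb8 overlap exons of antisense genes, and Tapbp shares 149 exon bases with Zbtb22 on its own strand.

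None of the structural chains was called. H2-K1 stood at 1035 and 1086 CPM in naive KO cells, against 1137 and 1144 CPM in WT cells (log2 fold change -0.12, adjusted p = 0.10), and H2-D1 at 849 and 906 CPM in KO, against 936 and 961 CPM in WT (-0.13, adjusted p = 0.087, edgeR). Both KO libraries were below both WT libraries for each of these heavy chains. B2m overlapped between the genotypes, with 784 and 814 CPM in KO cells and 768 and 796 CPM in WT cells (0.01, adjusted p = 0.92).

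Psmb9 and Psmb10, the other immunoproteasome subunits, were not called. Psmb9 stood at 32.3 and 35.4 CPM in KO, against 35.9 and 37.4 CPM in WT (log2 fold change -0.13, SE 0.13), and Psmb10 at 29.3 and 36.8 CPM in KO, against 37.3 and 41.0 CPM in WT (-0.27, SE 0.13). Both were the least deeply counted of the 10, and their SE was about the size of Psmb9's difference. In all, 9 of the 10 genes had both KO libraries below both WT libraries, which held for 27.4% of the 7081 genes with a mean of 10 CPM or more. The exception was B2m.

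Regulators and receptors of the interferon-gamma pathway that were called were mostly lower in naive KO cells. Among the regulators, these were lower: Irf8, an interferon regulatory factor that B and myeloid cells also express (log2 fold change -0.83), Rfx5, a subunit of the X box complex (-0.46), Irf1 (-0.35) and Nfkb1, the p50 precursor (-0.28). Of 7 receptor and kinase genes, both interferon-gamma receptor chains were lower, Ifngr1 (-0.51) and Ifngr2 (-0.50), and the kinases Jak1 and Jak2 were higher (0.21 each). Irf1 had an SE of 0.06 and an adjusted p of 3.7e-06 (edgeR).

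Other class I genes split. H2-Q6 (-1.54), H2-Q7 (-0.68), H2-T24 (-0.48) and H2-Q4 (-0.24), nonclassical class I genes of the Q and T regions, were lower, and Cd1d1, the lipid-presenting class I-like gene, was higher (1.47), out of 10 tested of 13 listed. Class I genes are close copies of each other, and 16.3% of the 38-base stretches of H2-K1 and 21.8% of those of H2-D1 also occur in other genes, so reads may be shared or lost among them. Of the 11 other subunits of the proteasome core, Psma6 alone was called (0.50), of the 3 constitutive catalytic subunits and the 4 PA28 and assembly genes 0 were called, and of 5 loading and trimming genes Pdia3 (ERp57) was higher (0.35).

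Markers of other cells moved with genotype in the same libraries. The summed level of 5 B cell markers was 154 to 158 CPM in naive KO cells, against 208 to 210.3 CPM in WT cells, with no marker at 0; 1 of the 5 had enough counts to be tested, and it was lower. Class II genes, which B cells and other presenting cells express, summed to 23.1 CPM or less in KO, against 44.6 to 45.7 CPM in WT, and Cd74 was called lower (-1.36). Of 7 myeloid markers, 5 were tested, 2 lower and 1 higher, and their sums were 12.99 to 15.8 CPM in KO, against 16.5 to 20.1 CPM in WT. Red cell and platelet markers summed to 6.27 to 6.60 CPM in KO, against 18.8 to 19.2 CPM in WT. Cd8a and Cd8b1 summed to 29.7 to 30.2 CPM in KO, against 14.6 to 14.7 CPM in WT. T cell markers summed to 2443 to 2602 CPM in KO, against 2157 to 2165 CPM in WT. The mitochondrial share of counts was 14.3% and 16.7% in the naive KO libraries, against 12.96% and 12.6% in the WT ones, and unmapped reads were 33.6% and 30.6% of those tabulated in KO, against 35.9% and 35.6% in WT. The part of all these in the class I differences was not tested, and that of sex cannot be told apart from genotype here.

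**Figure D3:**
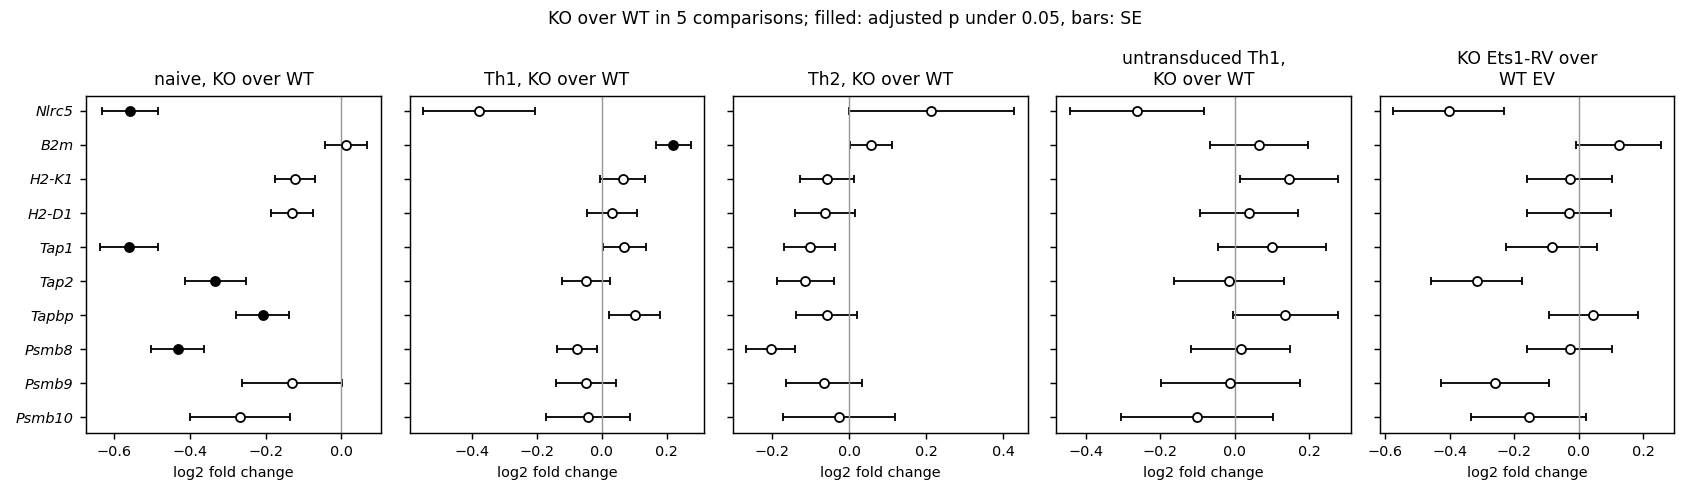
Log2 fold change of KO over WT (horizontal axis) for the 10 genes in 5 comparisons, with bars for the SE; filled points are called at an adjusted p under 0.05. In naive cells 5 genes are called, all lower, in Th1 cells B2m alone, higher, and in the other 3 comparisons none.

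In Th1 cells B2m was the only 1 of the 10 called between genotypes, and it was higher in KO, where 2.16% of the 12616 genes tested were called higher, 1.51% lower and 3.66% in either direction. B2m stood at 932, 987 and 989 CPM in Th1 KO cells, against 807, 824 and 839 CPM in Th1 WT cells (log2 fold change 0.22, SE 0.05, adjusted p = 0.028, edgeR, n = 3 each). All 3 KO libraries were above all 3 WT libraries, which held for 12.3% of the 7660 genes with a mean of 10 CPM or more. The call was lost in a fit of these groups alone (adjusted p = 0.076) and without KO replicate 1 or 2 or WT replicate 1 or 2 (highest adjusted p 0.13). Markers of gamma-delta T cells moved with genotype in the same libraries: 4 of 4 were called lower, their sums were 3.45 to 8.20 CPM in Th1 KO cells, against 16.3 to 27.4 CPM in Th1 WT cells, and none was at 0. The Th2 markers Il4, Il13 and Gata3 were all called higher, with sums of 319 to 657 CPM in Th1 KO cells, against 147 to 295 CPM in Th1 WT cells. Of the 2 Cd8 genes, 1 was tested and it was called higher, with sums of 5.83 to 8.40 CPM in KO, against 3.95 to 5.86 CPM in WT. The part of these markers in the B2m difference was not tested.

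Nlrc5 stood at 29.3, 31.7 and 40.2 CPM in Th1 KO cells, against 37.3, 45.6 and 47.6 CPM in Th1 WT cells. The groups overlapped, and the difference was not called (-0.38, SE 0.17, adjusted p = 0.28). The other 8 genes had adjusted p-values of 0.59 to 0.91. Without the filter on low counts 1 of the 10 was called lower in Th1 KO cells, in place of 0. Ifng itself, the cytokine that drives the pathway, was lower in Th1 KO cells, at 167 to 312 CPM, against 460 to 827 CPM in Th1 WT cells (log2 fold change -1.38, SE 0.19, adjusted p = 0.00061). Irf1 (0.02) was not called, nor was Ifngr1 (-0.44, adjusted p = 0.13). Among the regulators, Nfyb, an NF-Y subunit, was higher (0.40) and Irf8 lower (-0.37).

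In Th2 cells 0 of the 10 were called by edgeR and 0 by DESeq2, where 0.325% of genes tested were called by edgeR, and 1 of the 10 had an unadjusted p under 0.05. That gene was Psmb8, named here after its value was seen, with 340.1, 357 and 382 CPM in Th2 KO cells, against 404, 415 and 424 CPM in Th2 WT cells (log2 fold change -0.20, SE 0.06, adjusted p = 0.23). Its groups lay apart, as did those of Tap2, lower in KO on this scale but overlapping without scaling. B2m lay apart too and was higher in KO, at 721, 731 and 778 CPM, against 709, 716 and 718 CPM in Th2 WT cells. In all, 2 of the 10 lay below and 1 above, where 8.21% and 7.07% of 7707 genes with a mean of 10 CPM or more did. Nlrc5 overlapped, with 13.7, 17.98 and 18.3 CPM in Th2 KO and 9.41, 12.7 and 20.97 CPM in Th2 WT cells (0.21, SE 0.22). The KO effect in Th1 minus that in Th2 cells was called for 0 of the 10 by edgeR and by DESeq2, with 2 at an unadjusted p under 0.05, and 0% of all genes were called. Nlrc5 had the largest of these differences in size (-0.59, SE 0.28, adjusted p = 0.51). Without the filter on low counts 1 of the 10 was called, with a negative difference.

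The KO effect was tested between naive and differentiated cells in a fit of both sets. Ets1, with naive levels given above, stood at 470 to 537 CPM in Th1 KO, against 634 to 725 CPM in Th1 WT. In Th2 cells Ets1 was at 602 to 626.5 CPM in KO, against 707 to 746 CPM in WT. The genotypes thus lay closer in Ets1 in helper cells than in naive cells, and its part in what follows was not tested. The log2 fold change of KO over WT was 0.63 higher in Th1 than in naive cells for Tap1 (SE 0.11, adjusted p = 0.0020) and 0.36 higher for Psmb8 (SE 0.10, adjusted p = 0.046), where 3.05% of genes were called in either direction, 1.6% positive and 1.45% negative. Between Th2 and naive cells, Tap1 differed by 0.46 (SE 0.12, adjusted p = 0.022), where 3.29% were called in either direction, 1.6% positive and 1.7% negative. All 10 differences were positive in both comparisons, with medians of 0.22 and 0.19, against 0.01 over all genes in each. The share of all genes with a positive difference is not given. Both comparisons subtract the same naive effects, 9 of which were negative, so these counts are not separate from the naive result. Tap1 was called in 16 of 16 other settings for Th1 and 12 of 16 for Th2, where the call was lost without naive KO replicate 1 or 2, naive WT replicate 2 or Th2 KO replicate 1 (highest adjusted p 0.23). Psmb8 was called in 3 of 16, and its adjusted p reached 0.24. The naive libraries are a set of their own, so cell state and set cannot be told apart here, and in the Th1 and Th2 libraries both genotypes had Xist, unlike the naive KO libraries.

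Between the helper fates the largest class I difference was in Nlrc5. In WT cells, 4 of the 10 were called higher in Th1 than in Th2 cells (Nlrc5, Psmb10, Psmb9 and B2m) and 2 lower (Tapbp and Tap2), where 13.7% of genes were called higher, 15.8% lower and 29.5% in either direction. In KO cells 5 were called, all higher (Nlrc5, Psmb10, Psmb9, B2m and H2-D1), where 8.01% were called higher, 9.51% lower and 17.5% in either direction. Nlrc5, at 37.3 to 47.6 CPM in Th1 WT cells, against 9.41 to 20.97 CPM in Th2 WT cells, had a log2 fold change of 1.60 (SE 0.20, adjusted p = 5.2e-06, edgeR). In KO cells it stood at 29.3 to 40.2 CPM in Th1, against 13.7 to 18.3 CPM in Th2 (1.01, SE 0.19, adjusted p = 0.0011). The fates did not overlap in either genotype, and both calls held in 12 of 12 other settings. Of the 10, 5 lay wholly above and 2 below in Th1 WT, where 23.3% and 23.3% of 7708 genes with a mean of 10 CPM or more did. In KO cells 7 lay above and 1 below, where 22.3% and 19.4% of 7696 such genes did.

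Psmb9 stood at 50.7, 56.1 and 57.0 CPM in Th1 WT cells, against 36.4, 40.6 and 40.6 CPM in Th2 WT cells (log2 fold change 0.48, SE 0.10, adjusted p = 0.00084), and in KO cells the change was 0.49 (adjusted p = 0.0012). Psmb10, which replaces Psmb7 in the immunoproteasome, stood at 22.5, 23.97 and 28.5 CPM in Th1 WT, against 16.03, 17.3 and 18.95 CPM in Th2 WT (0.52, SE 0.14, adjusted p = 0.0074), with 0.50 in KO cells. Both subunits lay wholly above in Th1 WT, as 23.3% of genes with a mean of 10 CPM or more did. Psmb8 was not called: it stood at 393, 407 and 421 CPM in Th1 WT, against 404, 415 and 424 CPM in Th2 WT (-0.03). Without 1 Th1 WT library (replicate 1) the WT call of Psmb10 was lost (adjusted p = 0.053), and without Th1 KO replicate 1, Th2 KO replicate 2 or Th2 KO replicate 3 its KO call was lost (highest adjusted p 0.095).

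B2m was higher in Th1 than in Th2 cells by 0.21 in WT (SE 0.05, adjusted p = 0.0074) and by 0.37 in KO (adjusted p = 8.9e-05). H2-D1 stood at 772, 788 and 846 CPM in Th1 WT, against 665, 716 and 746 CPM in Th2 WT, and was called in KO (0.27, adjusted p = 0.019) but not in WT (0.18, adjusted p = 0.088) by edgeR, with the WT difference called without the filter on low counts. The KO call of H2-D1 was lost without the same 3 KO libraries (highest adjusted p 0.11). The loading genes ran the other way in WT. Tapbp stood at 111, 128 and 132 CPM in Th1, against 144, 158 and 161 CPM in Th2 (-0.32, SE 0.08, adjusted p = 0.0048), and Tap2 at 77.9, 80.5 and 87.3 CPM in Th1, against 94.7, 99.0 and 103 CPM in Th2 (-0.27, SE 0.07, adjusted p = 0.0094). In KO cells Tapbp (-0.16, adjusted p = 0.18) and Tap2 (-0.21, adjusted p = 0.064) were not called. H2-K1 (0.07 in WT, 0.19 in KO) and Tap1 (0.02 and 0.19) were called in neither genotype by edgeR. In KO cells DESeq2, and edgeR on only the groups compared, called both higher, which makes 7 of the 10 in place of 5; H2-K1 was also called without the filter on low counts and with the replicate block, and Tap1 from counts without strand.

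The pathway around the 10 genes differed between fates in both directions. Ifng, the defining cytokine of Th1 cells, was at 460 to 827 CPM in Th1 WT, against 0.477 to 2.06 CPM in Th2 WT. Among the regulators in WT, Irf8 (1.06), Irf1 (0.65) and Irf2 (0.34) were higher in Th1, and Nfyb (-0.55) and Creb1 (-0.25) were lower. Of 7 receptor and kinase genes, Ifngr1, the ligand-binding chain, was higher (1.53), and Jak2 (-1.50) and Ifngr2, the second chain (-1.26), were lower. Other class I genes were mostly higher among those called, 5 of 11 tested against 1 lower, led by H2-T24 (0.93), H2-Q6 (0.81) and H2-T22 (0.62), with Mr1, which presents microbial metabolites, lower (-0.52). All 5 class II genes were lower in Th1 WT cells, and 0 of the 3 constitutive catalytic subunits and 2 of the 11 other core subunits were called (Psma1 0.41 and Psma3 0.25).

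Smaller groups around the pathway were also split between the fates in WT. Of 4 PA28 and assembly genes Psme3 (PA28 gamma) was higher (0.48), and of 5 loading and trimming genes Erap1, which trims peptides, was higher (0.30) while the chaperone Canx (-0.37) and the tapasin relative Tapbpl (-0.48) were lower. In KO cells Psme2, a PA28 subunit, was called higher in Th1 (0.38), and 7 of 11 other class I genes were called higher and 1 lower. B cell markers summed to 24.6 to 27.02 CPM in Th1 WT, against 33.3 to 73.0 CPM in Th2 WT, and 4 gamma-delta T cell markers to 16.3 to 27.4 CPM, against 5.62 to 10.7 CPM. No marker of either list was at 0, and their part in these differences was not tested.

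**Figure D4:**
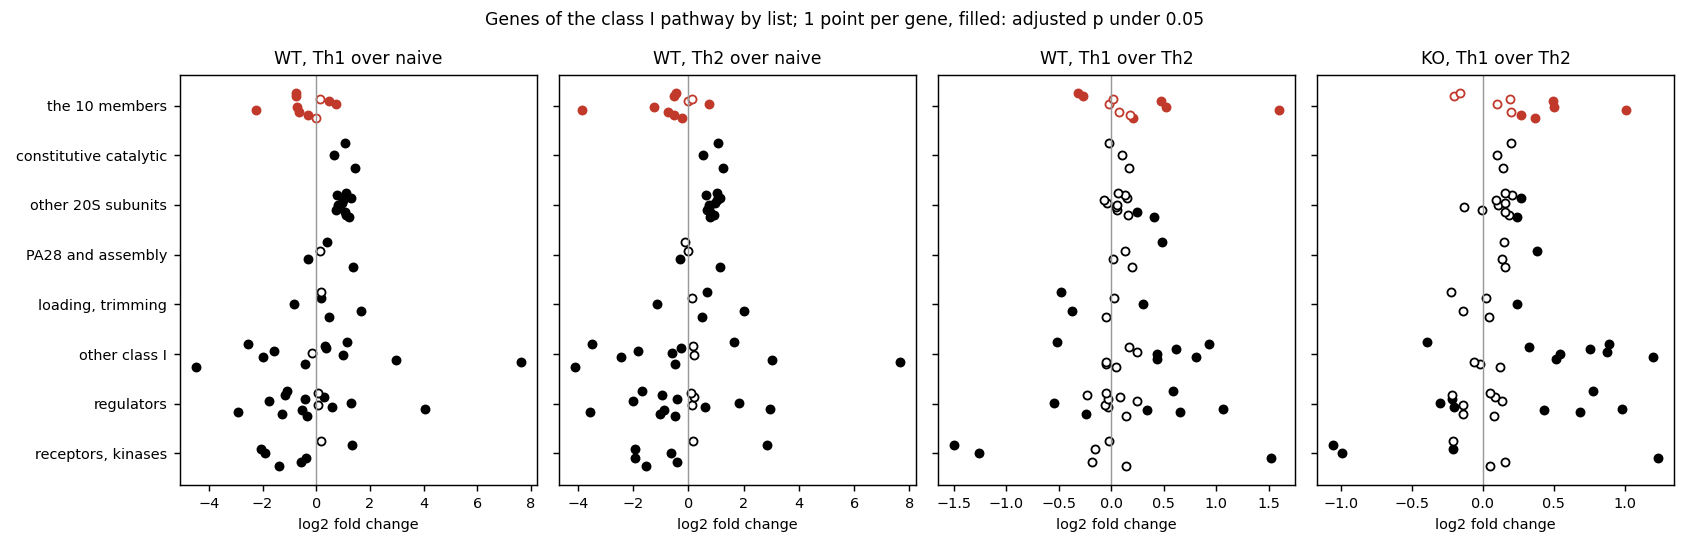
Log2 fold change (horizontal axes, 1 per panel) of the 10 genes in red and of the pathway lists in black, 1 point per gene, for Th1 over naive and Th2 over naive in WT and for Th1 over Th2 in WT and in KO; filled points are called. All 3 constitutive catalytic and all 11 other core proteasome subunits are higher in both WT helper fates than in naive cells, and the 10 genes lie on both sides of 0.

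Helper cells of WT mice differed from naive WT cells in most of the 10 genes, and not in one direction. In Th1 cells 2 were called higher (Psmb8 and Psmb9) and 6 lower (Nlrc5, Tapbp, Tap2, Psmb10, H2-K1 and H2-D1), where 40% of 14029 genes tested were called higher, 36.1% lower and 76.1% in either direction. In Th2 cells 1 was higher (Psmb8) and 7 lower (the same 6 and B2m), where 40.2% were called higher, 36.6% lower and 76.9% in either direction. In either direction 8 of the 10 were called in each fate, near the background; by direction, calls of the 10 were mostly lower, while those over all genes were split about evenly. The sets were made apart, so state and set cannot be told apart. Nlrc5 had the largest change of the 10. At 37.3 to 47.6 CPM in Th1 WT and 9.41 to 20.97 CPM in Th2 WT, against 192 and 200.2 CPM in naive WT, it had a log2 fold change of -2.26 in Th1 (SE 0.15, adjusted p = 1.1e-12) and -3.87 in Th2 (SE 0.18, adjusted p = 2.4e-16).

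Markers of other cells and the mitochondrial share moved with these differences. B cell markers summed to 24.6 to 27.02 CPM in Th1 WT and 33.3 to 73.0 CPM in Th2 WT, against 208 to 210.3 CPM in naive WT. Of 6 myeloid markers tested, 5 were lower and 0 higher in Th1 and 4 lower and 1 higher in Th2, and 3 of 3 red cell and platelet markers tested were lower in both fates. The mitochondrial share was 7.40% to 8.20% in Th1 WT and 8.05% to 9.78% in Th2 WT, against 12.6% to 12.96% in naive WT. Their part in the class I differences was not tested.

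Psmb8 went the other way, at 393 to 421 CPM in Th1 WT and 404 to 424 CPM in Th2 WT, against 227 and 237 CPM in naive WT (log2 fold changes 0.73 and 0.74). Psmb10 fell to 22.5 to 28.5 CPM in Th1 and 16.03 to 18.95 CPM in Th2, against 37.3 and 41.0 CPM in naive cells (-0.73 and -1.26). Psmb9 rose in Th1 (0.49) and was not called in Th2 (0.00). Of these 3 subunits, which are built into the same particle, 1 was higher and 1 lower in both fates. The other lower genes had log2 fold changes, in Th1 and then in Th2, of -0.66 and -0.75 for H2-K1, -0.33 and -0.52 for H2-D1, -0.77 and -0.46 for Tapbp, and -0.77 and -0.51 for Tap2. B2m was lower in Th2 (-0.23, adjusted p = 0.0016), a call lost from counts without strand and without naive WT replicate 1. Tap1 was not called (0.15 and 0.12), nor was B2m in Th1 (-0.01).

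Constitutive proteasome genes rose as a group over naive cells. In Th1 WT cells Psmb5 (log2 fold change 1.43), Psmb7 (1.06) and Psmb6 (0.66) were all called higher, as were 11 of 11 other core subunits, with Psmb2 (1.29), Psma1 (1.22), Psmb4 (1.12) and Psma2 (1.09) the most changed, and Pomp, the maturation protein (1.36). In Th2 WT cells the same counts, 3 of 3 and 11 of 11, were called higher. The median of all genes was 0.10 in Th1 and 0.08 in Th2. Irf1 (-2.90 in Th1 and -3.57 in Th2) was lower, while Irf8 (4.04 and 2.97) was higher. The receptor chains Ifngr1 (-0.39 and -1.93) and Ifngr2 (-1.89 and -0.64) and the kinase Jak1 (-2.07 and -1.93) were lower, and the kinase Jak2 (1.35 and 2.83) was higher. Among loading genes in Th1, Canx (1.66), Calr (0.47) and Pdia3 (0.16) were higher and Erap1 lower (-0.82).

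The balance of the immunoproteasome to the constitutive proteasome was summed up as the ratio of Psmb8, Psmb9 and Psmb10 to Psmb5, Psmb6 and Psmb7, each in CPM per kb. It was 2.07 ± 0.094 in naive KO cells, against 2.70 ± 0.285 in naive WT cells (SD, n = 2 each), a ratio of 0.767 with no overlap. In Th1 it was 1.97 ± 0.050 in KO and 2.05 ± 0.142 in WT, and in Th2 1.92 ± 0.106 in KO and 2.08 ± 0.027 in WT (SD, n = 3 each). In un-transduced cells of the second experiment the direction was the other: the ratio was 2.40 ± 0.259 in KO and 1.99 ± 0.010 in WT (SD, n = 2 each), 1.21 times as high with no overlap. There the 3 constitutive subunits summed to 124.7 to 129.7 CPM in KO, against 141.5 to 159.0 CPM in WT. Psmb8, Psmb9 and Psmb10 each overlapped between those groups. The ratio was 2.10 ± 0.173 in Ets1-RV KO and 2.08 ± 0.015 in EV WT cells, with overlap. Th1 WT and Th2 WT cells stood at 0.760 and 0.770 of naive WT cells. The pairs within it differed: Psmb10 to Psmb7 was 0.918 in Th1 WT and 0.632 in Th2 WT, against 3.19 in naive WT, while Psmb9 to Psmb6 was 0.351 and 0.269, against 0.394. Between naive KO and naive WT cells, Psmb9 to Psmb6 (0.388 and 0.394) and Psmb10 to Psmb7 (2.66 and 3.19) overlapped. Of the pairs, only Psmb8 to Psmb5 lay apart between the naive genotypes. Psmb5 shares 68.8% of its 38-base stretches with other genes, so its count, and the ratio of Psmb8 to Psmb5 (6.99 in naive KO and 13.4 in naive WT), are uncertain. Psmb7 shares 30.6% of its 38-base stretches, so the ratio of Psmb10 to Psmb7 is uncertain too.

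The transporter chains work as a pair of subunits, and their ratio differed between sets of libraries. Tap1 to Tap2 per kb was 0.760 in naive KO cells and 0.889 in naive WT cells. In Th1 cells it was 1.83 in KO and 1.69 in WT, and in Th2 cells 1.39 in KO and 1.38 in WT. In the second Th1 experiment it was 1.13 in un-transduced KO and 1.04 in un-transduced WT cells, and 1.21 in Ets1-RV KO and 1.03 in EV WT cells. The WT values of that experiment lay between those of naive WT and first Th1 WT cells, closer to naive WT, so state and set cannot be told apart here either. Which chain is the higher depends on the gene length used: in CPM, without length, Tap1 was above Tap2 in naive cells of both genotypes.

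In the second Th1 experiment 0 of the 10 were called in any of 5 comparisons by edgeR, 0 by DESeq2 and 0 by edgeR with the replicate block. B numbers were not part of the main fit, so its SE hold the differences between them. Un-transduced KO cells against un-transduced WT cells gave log2 fold changes of -0.26 for Nlrc5 to 0.14 for H2-K1, with SE of 0.131 to 0.205, and 0 of the 10 had an unadjusted p under 0.05, where 1.24% of 11072 genes were called. Ets1-RV KO cells against EV WT cells had 2 of the 10 at an unadjusted p under 0.05, Nlrc5 (-0.40, SE 0.17, adjusted p = 0.45) and Tap2 (-0.32, SE 0.14, adjusted p = 0.48), where 0.56% of genes were called. For Ets1-RV KO against un-transduced KO 0.19% of genes were called, and for EV WT against un-transduced WT, and for the difference of these effects, 0%, and 0 of the 10 had an unadjusted p under 0.05 in those 3. Ifng was lower in un-transduced KO cells, at 334 and 475 CPM, against 1218 and 1326 CPM in un-transduced WT cells (-1.63, SE 0.21, adjusted p = 0.0016).

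Nlrc5 stood at 108 and 114 CPM in un-transduced KO cells, against 152 and 119 CPM in un-transduced WT cells, for B numbers 1 and 2 in that order. It stood at 95.9 and 94.6 CPM in Ets1-RV KO, against 149 and 103 CPM in EV WT. The KO groups lay below the WT groups on this scale and overlapped them in CPM without scaling. Between un-transduced groups 1 of the 10 lay below, where 24.9% of 7529 genes with a mean of 10 CPM or more did. Between transduced groups 4 of the 10 lay below, where 18.9% of 7519 such genes did. By B number, Nlrc5 differed by -0.49 in B1 and -0.06 in B2 between un-transduced cells (log2 of the ratio of levels), and by -0.63 and -0.12 between transduced cells. Of the 10 genes, un-transduced KO was below WT in 2 for B1 and in 9 for B2, and Ets1-RV KO was below EV WT in 8 for B1 and in 7 for B2. Shares over all genes are not given for these counts by B number. The B1 libraries had the Y-linked Ddx3y and the B2 libraries had Xist, so B number and sex cannot be told apart.

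WT cells labelled Th1 had other Nlrc5 levels in the second experiment than in the first. Un-transduced WT Th1 cells of the second had Nlrc5 at 119 and 152 CPM, against 37.3 to 47.6 CPM in the first, and 97.0 and 149 CPM, against 44.2 to 56.2 CPM, without scaling. The groups did not overlap on either scale. Ifng was at 1218 and 1326 CPM in the second, against 460 to 827 CPM in the first, and the summed Th2 markers Il4, Il13 and Gata3 at 16.9 to 18.1 CPM, against 147 to 295 CPM. The experiments were scaled with factors of 0.817 to 0.991 and 1.11 to 1.19, and no test was run across them.

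Across the 10 groups Nlrc5 had the widest span of the 10 genes, 13.7-fold between naive WT and Th2 WT cells. The next was Psmb8 with 2.53-fold, from EV WT down to naive KO, then Psmb10 with 2.28-fold, Tap1 with 1.81-fold and Tapbp with 1.77-fold. Tap2 spanned 1.65-fold, H2-K1 1.63-fold, Psmb9 1.62-fold, H2-D1 1.51-fold and B2m 1.39-fold. The order of group means for Nlrc5 was naive WT at 196, un-transduced WT at 135, naive KO at 135, EV WT at 126, un-transduced KO at 111, Ets1-RV KO at 95.3, Th1 WT at 43.5, Th1 KO at 33.7, Th2 KO at 16.7 and Th2 WT at 14.4 CPM. Of the 9 neighbouring pairs in that order 4 did not overlap: naive WT and un-transduced WT, un-transduced KO and Ets1-RV KO, Ets1-RV KO and Th1 WT, and Th1 KO and Th2 KO. Tap1 was highest in Th1 KO at 212 CPM and lowest in Ets1-RV KO at 153 and naive KO at 117 CPM, and of its 9 neighbouring pairs the last alone did not overlap.

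Over the 28 labelled libraries, which share sets, depth and scaling, the 10 genes did not move as one. Of the 45 pairs, 30 had a positive and 15 a negative correlation of log2 levels. Nlrc5 correlated with H2-D1 and with H2-K1 at 0.88 each and with Tap1 at -0.63, and Tap1 was negative with 7 of the other 9. With the mean of the 10, H2-D1 was the most alike (0.96) and Nlrc5 next (0.92), while Psmb8 (0.06) and Tap1 (-0.43) were least alike. Each of the 10 is part of that mean, and levels were not put on an equal spread before averaging. Nlrc5, with a 13.7-fold span over groups, therefore weighs most in it, and these values are partly built in. The genes whose levels were most like that mean, among 7782 with a mean of 10 CPM or more, were Fam53c (0.94), Pdzd8, Bend3, Ncdn and Qser1 (0.93 each). With unscaled CPM 0 of these 5 were among the top 5. With a mean of at least 50 CPM 1 was, with the 10 group means 1 was, and with a pseudocount of 0.1, 4 were. The names thus depend on the scaling, the cut-off and the use of libraries or group means.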

How the data were processed

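RNA of mouse CD4 T cells was read in pairs from SMARTer Stranded Total RNA Pico v2 libraries, 38 or 61 bases per read, per the labels' protocols. The authors deposited raw counts per gene and strand for each of 36 libraries, made with STAR 2.5.0a on GRCm38, per the submitters' processing notes. The 4 summary lines of each table, 63.6% to 74.3% of what the labelled libraries tabulate, stayed out. The strand with 93.3% to 95.2% of stranded gene counts was used. Of the 45706 Ensembl IDs, 45143 matched GENCODE M21 and gave symbols. The 8 libraries whose title and transduction label name different viruses were left out of all comparisons. The 4 libraries of a transduced group were summed by B number into 2.

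Counts were tested with edgeR 4.0.16 (TMM, filterByExpr, quasi-likelihood F test, limma 3.58.1, R 4.3.3), within naive, first Th1 and Th2, and second Th1 libraries, and over naive and first libraries for comparisons across them; Benjamini-Hochberg adjustment ran over all genes tested, at 0.05. Alternatives were DESeq2 1.42.0, RLE factors, no filter on low counts, counts without strand, a replicate block, single libraries in place of sums, only the groups compared, and each library left out. Scripts were tested on simulated data. Promoters came from RefSeq tables (GRCm38.p6). Likeness used Pearson's r of log2(CPM + 1). Figures used Python 3.11.15 and matplotlib 3.10.9.

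Within naive WT and naive KO, library pairs differed by a chi-square of 1.94 and 4.69 per degree of freedom; pairs sharing a B number in the second experiment gave 1.26 to 1.99, and un-transduced WT with B numbers 1 and 2 gave 13.9. The 10 genes and the gene lists were chosen with earlier results of these data known. Named genes of lists with up to 5 members are all those called, of longer lists up to 4 with the largest change, plus Irf1, Ifngr1 and Ifng; further called genes are named in passing, and a listed gene is not reported here. The sources used here do not link libraries to animals.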

Additional observations from a re-analysis of the deposited data

Results flagged for a closer look

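The KO effect on Tap1 differed between Th1 and naive cells by 0.63 and between Th2 and naive cells by 0.46, and that on Psmb8 differed between Th1 and naive cells by 0.36, all on the log2 scale in the edgeR interaction test. These were picked out because the same KO over WT contrast gave different sizes in different cell states. For Tap1 the log2 fold change of KO over WT was -0.56 in naive, 0.07 in Th1 and -0.10 in Th2 cells, and for Psmb8 it was -0.43 in naive, -0.08 in Th1 and -0.20 in Th2 cells. Cell state and library set cannot be told apart, and the naive KO and WT libraries also differ in Xist. In 20 groups of 4 libraries checked for a library standing apart (the 10 genes in 2 groups), none did. Libraries of these 2 transduced groups come in pairs that share a B number, so a lone library could hardly stand apart. Smaller groups were not checked.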

How the results depend on the processing

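Counts of the 10 genes called moved under several other settings, and no called value changed sign. In naive KO over WT the count was 4 in place of 5 with DESeq2, without the filter on low counts, without strand and with the replicate block, and for Th1 over Th2 in KO it was 6 or 7 in place of 5 under each other setting but RLE factors. Without the filter they were 2 in place of 1 for KO over WT in Th1, 1 in place of 0 for the Th1 minus Th2 effect, 7 in place of 6 for Th1 over Th2 in WT, 9 in place of 8 for Th1 over naive (9 also without strand), 1 in place of 2 for Th1 minus naive and 2 in place of 1 for Th2 minus naive; Th1 minus naive also gave 1 without strand, with the replicate block and with only the groups compared, and KO over WT in Th1 gave 0 with only the groups compared. Leaving out 1 library gave 2 to 4 in naive cells (5 with all), 0 to 1 in Th1, 3 to 7 for Th1 over Th2 in KO (5), 1 to 2 for Th1 minus naive and 0 to 2 for Th2 minus naive, where a lone library of a group is assumed to vary like the others. Of 920 values per gene under the other settings, 896 kept their side of the threshold, as did 898 of 940 with a library left out.

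Counts over all genes moved further. DESeq2 called 865 in naive cells (edgeR 1987), 78 in Th2 KO over WT (41), 20 for Th1 minus Th2 (0), 40 for Ets1-RV KO over un-transduced KO (21) and 3 for the difference of virus effects (0). Without the filter there were 835 for Th1 (462), 224 for Th2 (41), 213 for Th1 minus Th2 (0), 416 for un-transduced cells (137), 257 for Ets1-RV KO over EV WT (62), 17 for EV WT over un-transduced WT (0), 212 for Ets1-RV KO over un-transduced KO (21) and 29 for the difference of virus effects (0). The replicate block gave 63 in Th2 (41), 212 in un-transduced cells (137), 95 for Ets1-RV KO over EV WT (62), 45 for Ets1-RV KO over un-transduced KO (21) and 1 for the difference of virus effects (0). Single libraries in place of sums gave 266, 441, 126 and 6 where sums gave 137, 62, 21 and 0, and fits of only the groups compared gave 66 in Th2 (41) and 7 for Ets1-RV KO over un-transduced KO (21). Leaving out 1 library gave 399 to 1219 in naive cells (1987; lowest without KO replicate 2), 176 to 469 in Th1 (462; WT replicate 1), 14 to 50 in Th2 (41; KO replicate 2 or 3), 1380 to 2046 for Th1 over Th2 in KO (2211; Th1 replicate 2), 22 to 92 in un-transduced cells (137; KO B1), 10 to 64 for Ets1-RV KO over EV WT (62; KO B2), 0 to 38 for Ets1-RV KO over un-transduced KO (21; un-transduced B1), 170 to 432 for Th1 minus naive (428) and 190 to 532 for Th2 minus naive (462), both lowest without naive KO replicate 2. The background shares printed beside the 10 genes move with these counts. The cause was not tested. Same-numbered libraries were not taken as pairs in the main fits. Their deviations from the group means correlated at -0.0724 to 0.2 over 18 pairs in the first Th1 and Th2 groups, and at -0.0461 in naive cells. Over 12 pairs of the second experiment they correlated at 0.0464 to 0.299, each value standing for both B numbers of 1 pair of groups. There a B number goes with sex-linked transcripts and every correlation was positive, so the SE of the main fit hold that variation. With the replicate block 0 of the 10 were called in that experiment. Psmb9 and Psmb10 had 33 to 680 counts per labelled library, and Nlrc5 as few as 79, which limits their precision.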

Other observations

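The 8 libraries placed in no group, second-experiment Th1 cells whose title and transduction label disagree, were left out of all comparisons. Gm27162 had 0 counts in some of them and 5 to 17 in the others, so the ranges given here may pool both genotypes. Nlrc5 ran between 88.2 and 147 CPM (median 113), B2m between 855 and 1022 CPM (median 987) and Psmb8 between 396 and 504 CPM (median 442). Tap1 ran between 131 and 200 CPM (median 164) and Psmb10 between 22.1 and 35.8 CPM (median 29.3).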
